A study of Homo sapiens with 6 samples.

Results

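The chromatin positions of SON and of HMGB2 were compared in untreated IMR90 cells, which are human embryonic lung fibroblasts. Both proteins were mapped by ChIPmentation, in which antibody-bound chromatin is cut and tagged by a transposase. The 2 targets were fixed differently. Per the labels' protocol, cells for SON were fixed with 1% formaldehyde for 10 minutes, and cells for HMGB2 with 1.5 mM EGS, a longer protein crosslinker, for 20 minutes before the same formaldehyde step. Fixation therefore changes with the target, and the 2 cannot be told apart in any contrast given here. The protocol's sentence on HMGB2 fixation is incomplete, so details of that step may be missing. One peak list per target was used, on chromosomes 1 to 22 and X: 22216 SON peaks and 5992 HMGB2 peaks. Each of the 19974 protein-coding genes was assigned the strongest peak of each list that met its body or the 5 kb on either side. A peak was found in 1 or both lists at 11727 of these genes, and these are the genes described. The series asked how SON and HMGB2 relate to CTCF, genome architecture and gene expression, and the 4 other samples of the 6 are not analysed here.

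SON is a large protein that scaffolds nuclear speckles, the bodies in which splicing factors gather, and it is needed for the splicing of many transcripts. HMGB2 is a high mobility group box protein, which binds the minor groove of DNA with little sequence preference and bends it. Its level is known to fall as fibroblasts enter senescence. A peak of either protein records crosslinked contact with chromatin, direct or through other proteins.

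Peak strength is the authors' −log10 p, the significance of a peak over local background, and it serves only to rank peaks within a list. The SON list is an IDR list, made from peaks found in 2 replicates, and its −log10 p is the lower of the replicates' values. In 56.0% of SON peaks the columns of both replicates hold the same value, so their agreement is no independent measure of error. The HMGB2 list is a single MACS list with a q cutoff of 0.03 in its peak names. With 1 list per target no replicate check of a difference between the targets was possible, and no p-value is given for one. The lists hold no read counts, so depth is unknown, and the number of peaks in each list depends on it. Intervals given after percentages are at the 95% level (Clopper-Pearson, exact), count genes or peaks, and cover counting error only. Intervals of medians are taken over pairs of peaks, which are not replicates, and have the same limit.

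Cell type markers were read as a check of the label. Of 14 fibroblast markers, 11 had a peak in 1 or both lists, with COL1A1, COL1A2, COL3A1, COL5A1, PDGFRB and FAP in both, where 58.7% of all protein-coding genes had a peak in either list. VIM, S100A4 and POSTN had none. Of 9 epithelial markers, 2 (CDH1 and SFTPB) had a weak SON peak and none had HMGB2, and of 7 blood markers only PTPRC had a SON peak. Peaks also met 3 of 6 endothelial, 3 of 5 neuronal and 2 of 4 hepatocyte markers, near the share of all genes. A peak near a gene is not a measure of its expression, so these counts check the cell type only loosely.

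The sites where both proteins ranked highest lay just upstream of gene starts, and their sequences are shown first because the summits of the 2 proteins fall close to each other. Sequences are RefSeq promoter windows of GRCh38.p14, 250 bases before to 50 bases after an annotated start, written 5′ to 3′ on the gene's strand. In the 3 shared windows capitals run from one summit to the other. In the last 2 windows capitals mark the only summit with 10 bases on each side.

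IRGQ, chr19:43596085-43596384, minus strand, both proteins: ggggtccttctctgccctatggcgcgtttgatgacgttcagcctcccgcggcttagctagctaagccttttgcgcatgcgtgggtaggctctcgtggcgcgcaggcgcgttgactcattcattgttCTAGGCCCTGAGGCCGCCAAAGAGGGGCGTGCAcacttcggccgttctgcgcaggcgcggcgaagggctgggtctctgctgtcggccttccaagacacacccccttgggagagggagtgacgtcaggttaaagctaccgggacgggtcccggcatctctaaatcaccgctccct
RPS12, chr6:132814319-132814618, plus strand, both proteins: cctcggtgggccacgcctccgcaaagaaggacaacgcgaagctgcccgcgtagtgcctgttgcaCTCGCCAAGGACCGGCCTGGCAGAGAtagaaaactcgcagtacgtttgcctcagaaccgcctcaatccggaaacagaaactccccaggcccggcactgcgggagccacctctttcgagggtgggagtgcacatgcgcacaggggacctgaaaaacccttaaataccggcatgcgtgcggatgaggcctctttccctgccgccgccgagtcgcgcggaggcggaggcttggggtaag
POLR2E, chr19:1095326-1095625, minus strand, both proteins: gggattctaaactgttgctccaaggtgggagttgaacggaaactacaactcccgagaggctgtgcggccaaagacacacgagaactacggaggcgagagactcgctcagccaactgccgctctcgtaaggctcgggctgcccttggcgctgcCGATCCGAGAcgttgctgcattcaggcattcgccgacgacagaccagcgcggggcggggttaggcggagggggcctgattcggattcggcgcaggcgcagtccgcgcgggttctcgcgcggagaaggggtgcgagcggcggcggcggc
FAF2, chr5:176448135-176448434, plus strand, SON peak that meets no HMGB2 peak: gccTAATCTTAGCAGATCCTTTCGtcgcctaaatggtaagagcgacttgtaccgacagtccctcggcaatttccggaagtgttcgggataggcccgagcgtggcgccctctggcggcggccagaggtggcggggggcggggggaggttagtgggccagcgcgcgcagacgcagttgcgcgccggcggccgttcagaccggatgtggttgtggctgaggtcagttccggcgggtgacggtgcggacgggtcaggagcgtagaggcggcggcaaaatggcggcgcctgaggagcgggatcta
MUS81, chr11:65860183-65860482, plus strand, HMGB2 peak that meets no SON peak: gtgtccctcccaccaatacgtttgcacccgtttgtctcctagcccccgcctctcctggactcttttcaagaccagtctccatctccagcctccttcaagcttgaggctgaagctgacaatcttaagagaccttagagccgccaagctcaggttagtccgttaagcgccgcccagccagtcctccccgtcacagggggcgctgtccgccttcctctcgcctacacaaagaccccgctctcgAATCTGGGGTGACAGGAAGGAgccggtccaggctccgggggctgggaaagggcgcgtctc

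At IRGQ the SON summit lay 92 bp and the HMGB2 summit 124 bp upstream of the start, 32 bp apart. At RPS12, a protein of the small ribosomal subunit, the summits lay 186 and 161 bp upstream. At POLR2E, a subunit shared by the 3 nuclear RNA polymerases, they lay 98 and 89 bp upstream. The SON summit of FAF2, a factor of protein degradation at the endoplasmic reticulum, lay 237 bp upstream. The HMGB2 summit of MUS81, a DNA junction endonuclease, lay on the annotated start itself. For MUS81 the label holds for this peak only, since a SON peak lies elsewhere in the window of the gene. The windows hold 61 to 66.3% G and C, near the median of 62.7% over all promoter windows. Beside a median of 22 over all windows, they hold 26 CpG dinucleotides at IRGQ, 27 at RPS12, 36 at POLR2E, 35 at FAF2 and 17 at MUS81. None of the 9 motifs searched was common to the 3 shared windows. The IRGQ window held matches to part of the NRF1 site, to the AP-1 site and to the cAMP response element, and POLR2E and MUS81 to the GC box. MUS81 also had the CCAAT box, and FAF2 had the GC box, the ETS core and part of the YY1 site. RPS12 had a match only to part of the CTCF core, downstream of the start. The letters searched are given with the promoter results.

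SON met far more genes than HMGB2, and nearly every gene with HMGB2 also had SON. SON peaks met 11401 genes (57.1% of all protein-coding genes) and HMGB2 peaks 4650 (23.3%). Both were present at 4324 genes (21.6%), SON only at 7077 (35.4%), HMGB2 only at 326 (1.63%) and neither at 8247 (41.3%). Of the genes with HMGB2, 93.0% (92.2 to 93.7%) had SON, against 46.2% (45.4 to 47.0%) of genes without HMGB2. Of the genes with SON, 37.9% (37.0 to 38.8%) had HMGB2, against 3.80% (3.41 to 4.23%) of genes without SON. When the SON list was reduced to its strongest peaks, as many as the HMGB2 list has, both proteins were present at 2738 genes, SON only at 2839 and HMGB2 only at 1912. HMGB2 then stood at 49.1% of genes with SON and 13.3% of the others. The small number of genes with HMGB2 only therefore depends on the length of the SON list.

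The counts varied with gene length and with crowding. Across 5 classes of gene length, with medians from 3.12 to 152 kb, the share of genes with SON went from 36.8% to 70.9% and that with HMGB2 from 19% to 26.5%. HMGB2 was found at 47.0% of the shortest genes with SON and at 39.5, 36.2, 35.3 and 35.9% in the longer classes. Without SON, the share with HMGB2 stayed between 2.77% and 4.94% in all 5 classes. The window of 65.7% of genes met that of another protein-coding gene, so that 1 peak can count for several genes. At the 6853 genes that share no window, HMGB2 was present at 31.3% (29.6 to 32.9%) of those with SON and 2.45% (1.98 to 3.00%) of those without.

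**Figure D1:**
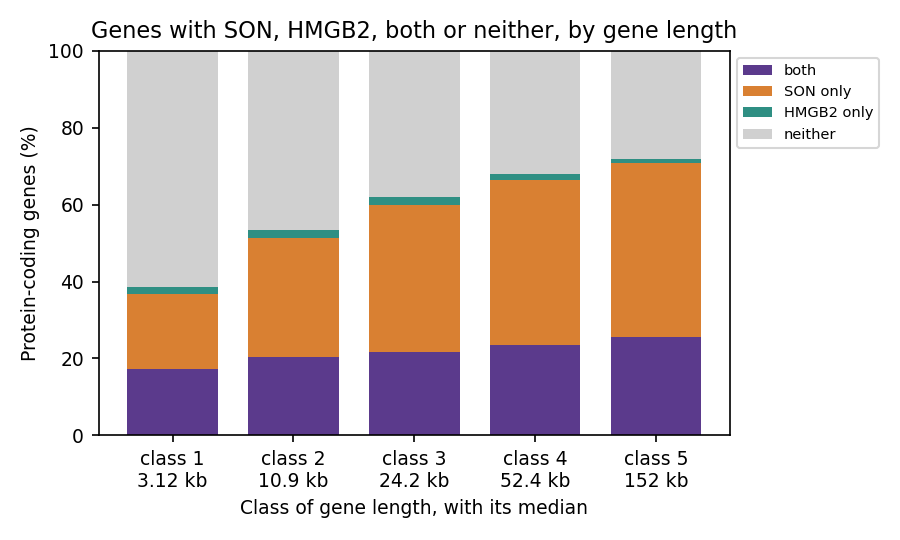
Shares of protein-coding genes (vertical axis, percent) with peaks of both proteins, SON only, HMGB2 only or neither, in 5 equal classes of gene length (horizontal axis, median in kb). The share with SON only goes from 19.5% in the shortest class to 45.4% in the longest, while the share with both goes from 17.3% to 25.5%.

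Genes with both proteins usually carried them at the same place. The strongest SON peak and the strongest HMGB2 peak overlapped at 2705 of the 4324 genes (62.6%), and at least 1 pair of peaks overlapped at 3658 (84.6%). At 666 genes no peak of one list overlapped a peak of the other. Those genes were longer, with a median of 48.7 kb against 23.5 kb where the strongest peaks overlapped. Their peaks were also lower in rank. The median SON percentile was 42.6 against 67.6, and the median HMGB2 percentile 29.1 against 56.6, where 100 is the strongest gene of a list by −log10 p. Counted over peaks, 3664 SON peaks (16.5%) overlapped an HMGB2 peak and 3734 HMGB2 peaks (62.3%) overlapped a SON peak.

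The 8 loci with the highest mean rank in both lists were led by IRGQ with its neighbour ZNF576, followed by RPS12, HSPA9, PDE4C, POLR2E, RWDD1, LIAT1 and the shared start of CDNF, HSPA14 and MSANTD7. At IRGQ and ZNF576 the SON peak, chr19:43595893-43596711, had a −log10 p of 202.9 in both replicate columns, and the HMGB2 peak 92.99. At RPS12 the values were 103.5 for SON and 266.8 for HMGB2, the highest HMGB2 value of all genes. HSPA9, the mitochondrial Hsp70, had 64.96 for SON and 260.5 for HMGB2, with summits 2 bp apart. POLR2E had 59.36 and 198.9, with summits 9 bp apart. At 7 of the 8 loci both strongest peaks lay at the same start. PDE4C, a cAMP phosphodiesterase, was the exception: its SON peak of 563.5 and its HMGB2 peak of 34.1 had summits 20433 bp apart. The genes of the 2 target proteins also belonged to the class with both. The SON gene had −log10 p of 49.55 for SON and 13.69 for HMGB2, with summits 22 bp apart, and the HMGB2 gene 50.07 and 15.66, with summits 10 bp apart.

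The stronger the SON peak of a gene, the more often HMGB2 was there. HMGB2 was present at 20.7% of genes in the lowest of 5 equal classes of SON percentile, then at 27.8, 38.8 and 45.2%, and at 57.2% (55.2 to 59.3%) in the highest class. Read from the other side, SON was present at 87.2% of genes in the lowest of 5 classes of HMGB2 percentile and at 98.3% in the highest. All of the 100 genes with the strongest HMGB2 peaks had SON, while 61 of the 100 genes with the strongest SON peaks had HMGB2. The median SON percentile was 63.5 at genes with both (quartiles 39.4 and 83.8; −log10 p 18.9) and 41.2 at genes with SON only (19.6 and 67.1; 12.5). A global IDR of at most 0.05, the reproducibility threshold often used, was met by the strongest SON peak at 86.8% of genes with both and 72.9% of genes with SON only. The distributions overlap widely, as the quartiles show.

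For HMGB2 the direction depended on the measure of strength. By −log10 p, the median HMGB2 percentile was 51.9 at genes with both and 31.0 at genes with HMGB2 only (−log10 p 10.7 and 8.68). By the authors' fold enrichment, the difference of the median percentiles was −9.89, so genes with HMGB2 only stood higher. The same was seen peak by peak. HMGB2 peaks on a SON peak had a median fold enrichment of 4.51 against 5.41 for the others, but a median −log10 p of 10.4 against 8.57, and they were wider, with a median of 258 bp against 220 bp. Across the HMGB2 list −log10 p and fold enrichment had a Spearman rho of 0.616 (5992 peaks of 1 library). All other statements on HMGB2 strength, before and after, use −log10 p and do not carry over to fold enrichment.

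Within the genes that had both proteins, rank in one list said little about rank in the other. Spearman's rho between the −log10 p values was 0.227 across 4324 genes, and 0.203 where the strongest peaks overlapped. It was −0.015 across the 666 genes whose peaks did not overlap. These are descriptions across genes of 1 list per target, and neighbouring genes share peaks. Between the replicate columns of the SON list the same genes gave 0.967, with identical values at 71.3% of them. With fold enrichment as the HMGB2 measure rho was −0.122, so even the sign of the relation rests on the measure. Each list was also cut into 4 equal classes by −log10 p, over all genes with a peak in it. These classes are unequal in size among the genes with both, so shares are compared rather than counts. From the lowest to the top SON class, 12.3, 20, 24.4 and 37.3% (588 genes) of the genes with both were in the top HMGB2 class. In the lowest HMGB2 class were 34.3% (207 genes), 26.7, 26.3 and 16.8%.

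**Figure D2:**
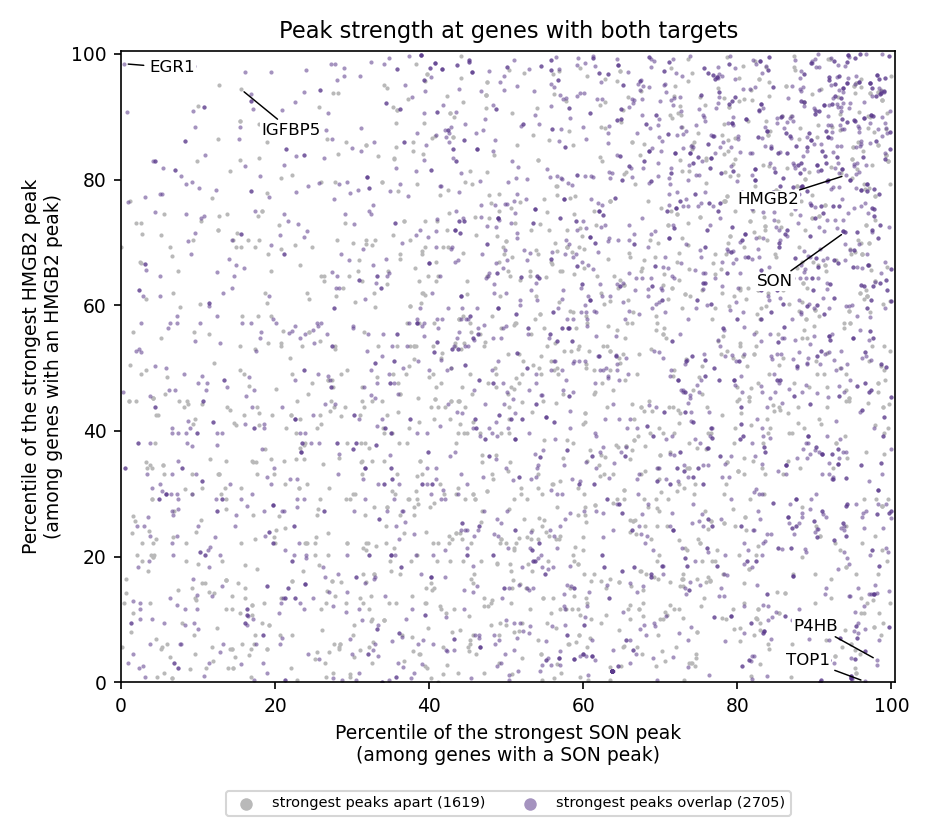
Percentile of the strongest SON peak (horizontal axis) against that of the strongest HMGB2 peak (vertical axis), both by −log10 p within their list, for the 4324 genes with both, coloured by whether the 2 strongest peaks overlap. The points fill the whole square with a modest crowding at upper right (rho 0.227), and SON and HMGB2, TOP1 and P4HB, and EGR1 and IGFBP5 are labelled.

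Some genes with both stood far apart in the 2 ranks. TOP1, the type I topoisomerase of transcribed chromatin, had a SON −log10 p of 64.16, percentile 96.5, and an HMGB2 value of 4.62, percentile 0.13. TFG, P4HB, TMEM141 and the locus of ATP5ME, MYL5, PDE6B and SLC49A3 had the same form. P4HB encodes protein disulfide isomerase and had 85.27 and 5.514. At all 5 loci the HMGB2 peak lay inside the same promoter as the SON peak, with summits 14 to 96 bp apart. The opposite extreme was EGR1, an immediate early transcription factor, with a SON −log10 p of 4.647 and an HMGB2 value of 55.1. Its strongest HMGB2 interval was 2900 bp wide, 6 HMGB2 peaks met its window, and the summits of the strongest peaks were 1246 bp apart. RSPH4A, VARS1, NME6 and NVL followed. At RSPH4A, a protein of the ciliary radial spoke, SON had 4.841 and HMGB2 19.97, with summits 5 bp apart. The 5 SON peaks of this group all had a global IDR of 0.431, the value shared by the least reproducible peaks of the SON list.

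The strongest SON peaks without HMGB2 reached the top of the SON list. FAF2 had a −log10 p of 672.8 (809.1 and 672.8 in the replicates), second among genes only to the highest value of 690.5. SLC13A3, a dicarboxylate transporter, had 486.8. The start shared by CHKB, a choline kinase, and CPT1B, a carnitine palmitoyltransferase, had 439. MARK2, SEZ6, CREB1, ADI1 and BRSK2 lay between 436 and 271.6. CREB1 encodes the cAMP-responsive transcription factor, and MARK2 and BRSK2 are related kinases. At none of these 8 loci did an HMGB2 peak meet the gene or its 5 kb flanks.

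The strongest peaks at genes with HMGB2 only were modest by comparison with those at genes with both. DSEL, an epimerase-like enzyme of dermatan sulfate, led with −log10 p of 19.94, percentile 90.7. The locus of GNAT1 and SEMA3F had 19.27, ZC3H12D 19.06, the locus of GNAI3 and GPR61 18.92 and ACTB 18.11. ADSL, DDR1 and TLE5 each had 16.56. ACTB, which encodes cytoplasmic beta-actin, had 7 HMGB2 peaks in its window, and the nearest SON summit lay 99.3 kb from the strongest. For the 7 other loci that distance was 8.42 to 54.5 kb. Across all HMGB2 peaks without SON, the median distance to the nearest SON summit was 8.20 kb, with quartiles of 2.66 and 24.7 kb.

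At shared peaks the 2 proteins had nearly the same summit. Over 3736 pairs of overlapping peaks, the median distance between summits was 38 bp (95% interval of the median 36 to 39 bp), with quartiles of 16 and 73 bp. The summits lay within 50 bp in 61.5% of pairs, within 100 bp in 84.2% and within 200 bp in 94.3%. Only 41 pairs were more than 500 bp apart, and the largest distance was 1439 bp. The summits of the 2 SON replicates at the same peaks were closer, with a median of 16 bp and quartiles of 6 and 32 bp. The 16 bp cannot be read as an independent error, for the reason given for the replicate columns.

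**Figure D3:**
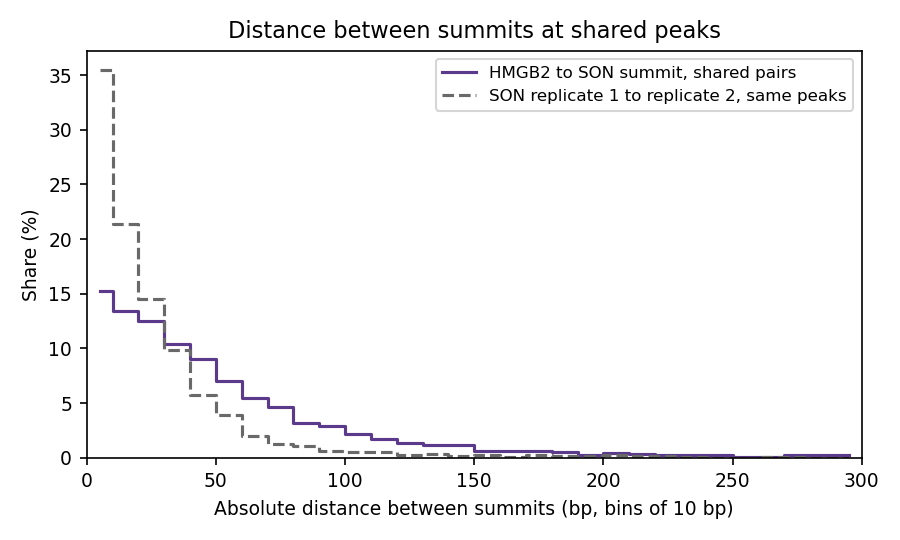
Share of pairs (vertical axis, percent) by absolute distance between summits (horizontal axis, bp, bins of 10 bp, shown up to 300 bp) for HMGB2 against SON at 3736 shared pairs, solid, and for the 2 SON replicates at 3664 shared SON peaks, dashed. Both curves are highest in the bin nearest 0, and the curve of HMGB2 against SON is the broader (median 38 bp against 16 bp).

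The distance varied with the width of the SON peak, which limits how far a summit within it can lie. The median distance was 33 bp where the SON peak was under 300 bp wide, 33.5 bp at 300 to 500 bp, 41 bp at 500 to 800 bp and 77.5 bp above that. HMGB2 intervals were the narrower, with a median of 242 bp against 412 bp for SON over all peaks. The HMGB2 interval lay wholly within the SON interval in 76.3% of pairs, and the HMGB2 summit lay within it in 99%. At gene starts the median distance was 35 bp, and elsewhere 40.5 bp. Along the direction of transcription the median shift at starts was small. The HMGB2 summit lay a median of 2 bp downstream of the SON summit (95% interval −1 to 4 bp, 1882 pairs, quartiles −34 and 36 bp). With 1 list per target and unlike fixation, a shift between the proteins themselves was not tested.

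Shared peaks lay at gene starts more often than peaks of 1 protein alone. A summit counted as at a start when it lay within 1 kb of an annotated start of a protein-coding gene. This held for 27.8% (27.2 to 28.4%) of SON summits and 39.8% (38.5 to 41.0%) of HMGB2 summits. Among SON peaks, 50.2% of the shared and 23.4% of the others were at a start. Among HMGB2 peaks it was 50.5% of the shared and 22.1% of the others. Unshared peaks of both proteins lay more often inside gene bodies than shared ones: 39.8% against 21.9% for HMGB2 and 39.2% against 21.7% for SON. They also lay more often outside all gene windows, with 20.9% against 16.3% for HMGB2 and 29.9% against 16.3% for SON. At gene ends stood 3.76% of unshared and 1.82% of shared HMGB2 peaks, and 1.23% and 1.91% of SON peaks. Along 4075 genes of at least 10 kb that share no window, summits away from starts were as frequent near the end as elsewhere. Of 5 equal segments from start to end, the last held 20.5% (19.1 to 22.1%) of such SON summits and 21.1% (17.4 to 25.2%) of such HMGB2 summits.

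Both proteins peaked just upstream of the start. The median SON summit lay 89 bp upstream (6176 summits) and the median HMGB2 summit 98 bp upstream (2384). Shared summits lay 111 bp (SON) and 105 bp (HMGB2) upstream. The 500 HMGB2 summits at starts without SON differed: their median was 35.5 bp upstream with an upper quartile 238 bp downstream, and 58% were upstream, against 86.4% of shared HMGB2 summits.

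**Figure D4:**
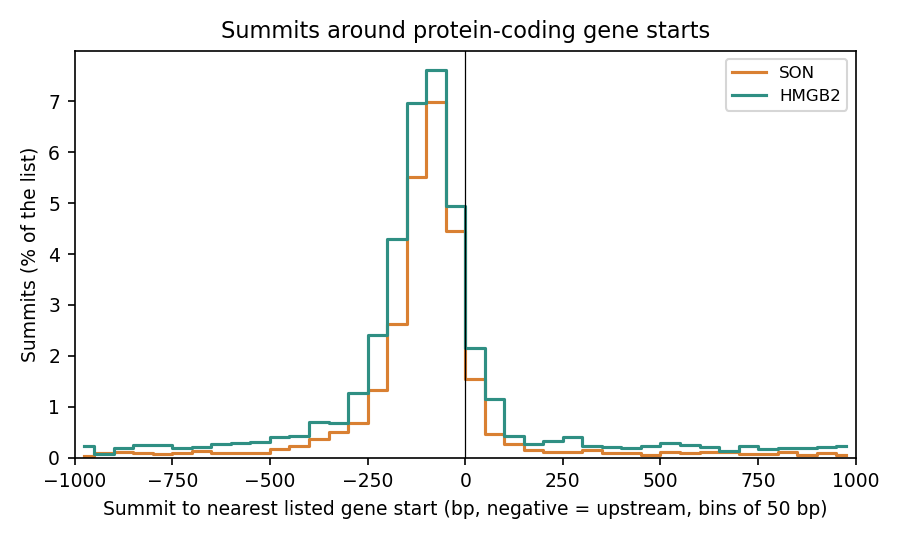
Summits of each list (vertical axis, percent of the list) by distance to the nearest annotated start of a protein-coding gene in the direction of transcription (horizontal axis, bp, negative upstream, bins of 50 bp, lines drawn through bin centres). Both lists are highest in the bin from 100 to 50 bp upstream, with 6.99% of SON and 7.61% of HMGB2 summits.

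Promoter composition separated bound from unbound promoters more than it separated the classes of binding. Of 15716 promoter windows, 1 per gene, 10.6% overlapped peaks of both proteins, 26.7% SON only, 1.41% HMGB2 only and 61.3% neither. The median number of CpG dinucleotides was 26 with both, 27 with SON only, 27 with HMGB2 only and 13 with neither. Of 4 classes of CpG number, the lowest (0 to 8) was nearly empty: 2.15% had SON only and 0.90% both. The shares did not rise steadily with CpG number. With 23 to 32 CpG 18.3% had both and 39.3% neither, and with 33 to 69 CpG 10.7% had both and 52.1% neither. Promoters with another start pointing away within 1 kb had SON in 76.0% of cases against 32.4% of the others, and HMGB2 in 25.8% against 10.2%.

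The CCAAT box, bound by the trimeric factor NF-Y, was the motif whose share differed most, in percentage points, between promoters with both proteins and those with SON only. As a ratio of the shares, the TATA box and part of the NRF1 site differed more. A window held CCAAT, on either strand, in 56.2% (53.8 to 58.7%) of promoters with both, 40.1% (38.7 to 41.6%) with SON only, 37.8% (31.4 to 44.6%) with HMGB2 only and 31.3% (30.4 to 32.2%) with neither. Over all windows the share was 36.4%. The difference of 16.1 percentage points between both and SON only was 15.4 over every listed start and 17.9 with the stronger 50% of each list. In the 4 classes of CpG number it was 21.6, 11.4, 17.9 and 15.6. These alternatives were chosen after seeing the data. The core of the ETS factor site, CGGAAG, went the other way, with 37.3% with both, 43.7% with SON only, 29.3% with HMGB2 only and 15.3% with neither. Part of the NRF1 site, GCATGCGC, stood in 6.67% with both, 9.68% with SON only, 1.35% with HMGB2 only and 1.51% with neither.

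The other motifs separated both from SON only by less. The GC box GGGCGG, bound by SP factors, was held by 75.2% of promoters with both and 72.9% with SON only, against 48.6% with neither. Part of the YY1 site, ATGGCGGC, was held by 7.27% and 8.83%, against 2.07% with neither. The cAMP response element TGACGTCA was held by 5.05% and 4.31%, against 1.33%. The TATA box TATAAA, with 6.37% and 4.33%, and the AP-1 site TGANTCA, with 3.19% and 3.90%, were more frequent with neither (12.9% and 6.97%). Part of the CTCF core, GGNGGCAG, was held by 18.3% with both, 16.2% with SON only and 19.6% with neither, so these letters differed little between the classes. Over all windows their share was 18.6%, and whether full CTCF sites differ was not tested. All motifs were searched on both strands, a match may overlap that of another motif (5.73% of windows), and a match is a run of letters, not evidence of binding.

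Gene groups differed in the share with SON, from 2.56% of olfactory receptor genes to 100% of hnRNP genes, and in how often HMGB2 joined it. Each count below stands beside 57.1% of all genes with SON, 23.3% with HMGB2 and 21.6% with both. The lists and members were chosen with results of these data known, and the counts describe them only.

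**Figure D5:**
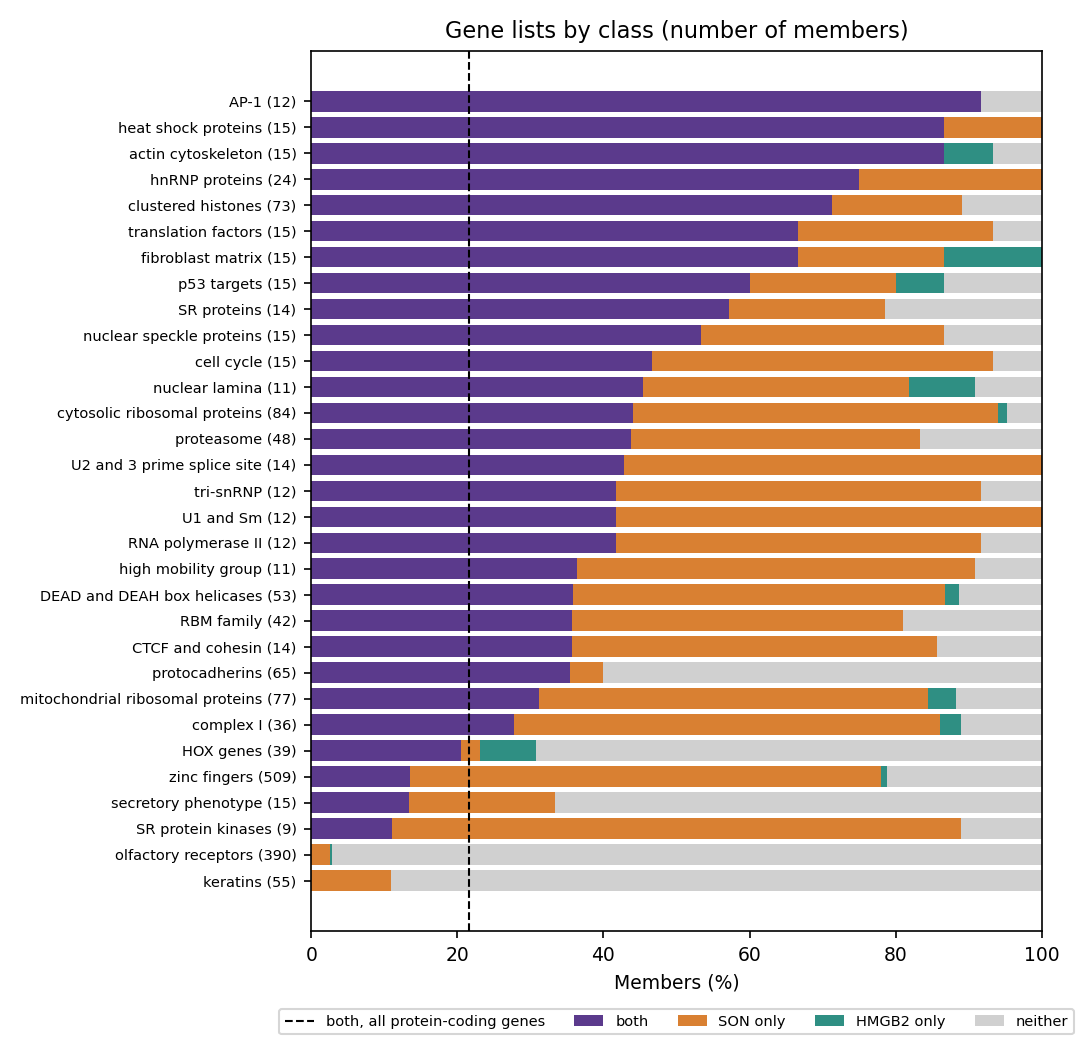
Members of 31 gene lists (horizontal axis, percent; number of members in parentheses) with both proteins, SON only, HMGB2 only or neither, ordered by the share with both, and a dashed line at 21.6%, the share of all protein-coding genes with both. AP-1, heat shock and actin genes stand at the top, and zinc fingers and kinases of SR proteins combine a small share with both with a large share with SON only.

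Most genes of speckle and splicing proteins had SON, and HMGB2 joined it at part of them. Of 15 nuclear speckle genes, 8 had both (SON, SRRM1, PNN, SRSF2, NSRP1, THRAP3, BCLAF1, RBM25), 5 had SON only (SRRM2, RNPS1, SRSF1, ZC3H14, CDK12), and ACIN1 and BUD13 had neither. SRRM1, a speckle coactivator of splicing, had a SON −log10 p of 93.07 and an HMGB2 value of only 5.997. All 10 HMGB2 peaks in the windows of these genes lay on a SON peak, against 63.6% at all protein-coding genes. Other lists with few HMGB2 peaks also reached 100%, such as U1 and Sm genes (5 peaks) and cell cycle genes (7). Among 14 SR proteins, which bind exonic enhancers, 8 had both (SRSF2, SRSF3, SRSF5, SRSF7, SRSF9, SRSF10, SRSF11, TRA2B), SRSF1, SRSF4 and TRA2A had SON only, and SRSF6, SRSF8 and SRSF12 neither. Of 9 matched kinases that phosphorylate SR proteins, 7 had SON only (CLK1, CLK3, CLK4, SRPK1, SRPK2, DYRK1A, DYRK1B), CLK2 had both with its strongest peaks at different places, and SRPK3 had neither.

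All 24 hnRNP genes, whose products package nascent transcripts, had SON, and 18 also had HMGB2, at 15 of them with the strongest peaks overlapping. HNRNPL had 91.24 for SON and 24.98 for HMGB2, and HNRNPA1 47.2 and 22.34. HNRNPA3 was the strongest of the 6 with SON only, at 42.37. All 14 genes of U2 and 3′ splice site recognition and all 12 of U1 and the Sm ring had SON, and HMGB2 was present at 6 and 5 of them. Those with both were U2AF2, SF1, SF3A1, SF3B2, SF3B3 and SF3B6 of the first group, and SNRNP70, SNRPA, SNRPB, SNRPD2 and SNRPG of the second. U2AF1, SF3A2, SF3A3, SF3B1, SF3B4, SF3B5, PHF5A and PUF60 had SON only, as did SNRPC, SNRPB2, SNRPD1, SNRPD3, SNRPE, SNRPF and SNRPN. U2AF2, which reads the polypyrimidine tract, had a SON value of 540.3 beside an HMGB2 value of 8.436. Of 12 tri-snRNP genes, PRPF8, PRPF3, PRPF4, EFTUD2 and USP39 had both, PRPF6, PRPF31, SNRNP40, SART1, SNU13 and TXNL4A had SON only, and SNRNP200 neither. EFTUD2, a GTPase of the U5 particle, went against U2AF2, with 12.01 for SON and 107.4 for HMGB2.

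Chromatin protein genes had SON more often than HMGB2, as did all protein-coding genes (57.1% and 23.3%). Among 11 high mobility group genes, HMGB1, HMGB2, HMGN3 and HMGN4 had both, HMGB3, HMGA1, HMGA2, HMGN1, HMGN2 and HMGN5 had SON only, and HMGB4 neither. All 4 HMGB2 peaks there lay on a SON peak, against 63.6% at all protein-coding genes, but 4 peaks are few. Among 14 genes of CTCF and cohesin, the ring that forms chromatin loops, CTCF, STAG1, STAG2, NIPBL and ESCO2 had both. SMC1A, SMC3, RAD21, MAU2, WAPL, PDS5B and ESCO1 had SON only, and CTCFL and PDS5A neither. CTCF itself had 37.1 for SON and 12.56 for HMGB2. RAD21, the cohesin kleisin, had a SON value of 75.46 without HMGB2. In the nuclear lamina LMNA, EMD, SUN1, SUN2 and SYNE1 had both, LMNB1, LMNB2, SYNE2 and BANF1 had SON only, LBR had HMGB2 only and TMPO neither. LMNA, which encodes lamins A and C, had 14 HMGB2 peaks and 7 SON peaks.

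Several lists carried nearly as many HMGB2 peaks as SON peaks or more, although SON peaks at protein-coding genes outnumbered HMGB2 peaks by 3.27 to 1. Among them were the nuclear lamina (23 of each), the translation factors (22 HMGB2 and 24 SON), the p53 targets (15 and 18), the hnRNP genes (28 and 34) and the clustered histones (39 and 49). In the nuclear lamina LMNA alone held 14 of the HMGB2 and 7 of the SON peaks, and 4 of the 11 genes had more HMGB2 than SON peaks. Summed over the list, the AP-1 and actin genes had more HMGB2 than SON peaks. Gene by gene this held at 7 of 12 AP-1 and 5 of 15 actin genes, against 790 of all 19974 protein-coding genes. The windows of 12 AP-1 genes, which encode bZIP factors that answer growth and stress signals, held 54 HMGB2 peaks and 21 SON peaks. Of those HMGB2 peaks 18 (33.3%) lay on a SON peak, against 63.6% at all protein-coding genes. JUN, JUNB, JUND, FOS, FOSB, FOSL1, FOSL2, ATF3, ATF4, MAFF and MAFG had both, and BATF3 had neither. JUN had 6 HMGB2 peaks with a highest −log10 p of 58.33 and 1 SON peak of 38.87. FOSB had 12 HMGB2 peaks and 2 SON peaks. The median HMGB2 percentile of the 11 AP-1 genes was 89.9, and their median SON percentile 65.5.

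As lists, actin and matrix genes were also rich in HMGB2 peaks, although only 5 of 15 genes in each had more HMGB2 than SON peaks. The 15 actin cytoskeleton genes held 53 HMGB2 and 38 SON peaks, with 32.1% of the HMGB2 peaks on SON. ACTG1, ACTA2, TAGLN, MYH9, TPM1, TPM2, TPM4, FLNA, VCL, ACTN1, ACTN4, CNN1 and CALD1 had both, ACTB had HMGB2 only and MYL9 neither. TPM4, a tropomyosin, alone had 15 of these HMGB2 peaks and 2 of the SON peaks. The 15 fibroblast matrix genes held 38 HMGB2 and 40 SON peaks, with 23.7% of the HMGB2 peaks on SON. COL1A1, COL1A2, COL3A1, COL5A1, COL5A2, COL6A2, COL6A3, SPARC, FBN1 and TIMP3 had both, FN1, TIMP1 and LOX had SON only, and COL6A1 and THBS1 had HMGB2 only. COL1A2, a chain of type I collagen, had 10 HMGB2 peaks of which 1 lay on a SON peak. The strongest peaks of the 2 proteins overlapped at 3 of the 10 matrix genes with both, 4 of 13 actin genes and 4 of 11 AP-1 genes, against 62.6% of all genes with both. Clusters of HMGB2 peaks were not limited to these lists. IGFBP5, a secreted binding protein of insulin-like growth factors, had the most HMGB2 peaks of any gene, 20, of which 1 lay on its only SON peak. NR4A1, PDE10A and CSRP1 had 14, 14 and 10. These genes were picked for their counts after the values were seen.

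Genes of stress, growth and ageing were mixed. Of 15 heat shock genes, 13 had both (HSPA1A, HSPA1B, HSPA5, HSPA8, HSPA9, HSP90AA1, HSP90AB1, HSP90B1, HSPD1, HSPE1, HSPH1, HSPB1, DNAJB1), and HSPA4 and DNAJA1 had SON only. HSPD1 and HSPE1, the mitochondrial chaperonin and its lid, share a start, and had an HMGB2 value of 8.91 at a SON percentile of 98.7. Of 15 p53 targets, CDKN1A, BBC3, BAX, GADD45A, SESN1, SESN2, TP53I3, RRM2B and PPM1D had both, MDM2, FDXR and XPC had SON only, FAS had HMGB2 only, and ZMAT3 and BTG2 neither. Cell cycle genes were evenly divided, with CDK1, TOP2A, AURKB, MCM2, MCM3, MCM5 and PCNA in both, CCNA2, CCNB1, CCNB2, PLK1, AURKA, BUB1 and E2F1 with SON only, and MKI67 with neither. Secretory phenotype genes had few peaks in these untreated cells. Of 15, 2 had both, IGFBP7 among them, IL6, CCL2 and CXCL2 had SON only, and 10 had neither (CXCL8, IL1A, IL1B, CXCL1, CXCL3, MMP1, MMP3, IGFBP3, VEGFA and GDF15).

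Genes of the basic machinery had SON in 81.0 to 94.0% of members of each list. Of 12 RNA polymerase II subunits, POLR2A, POLR2E, POLR2F, POLR2G and POLR2L had both, POLR2B, POLR2C, POLR2D, POLR2H, POLR2I and POLR2K had SON only, and POLR2J neither. Of 15 translation factors, EEF1A1, EEF1B2, EEF1G, EEF2, EIF1, EIF4A1, EIF4A3, EIF4G1, EIF4G2 and EIF5A had both, EEF1D, EIF2S1, EIF3A and EIF4E had SON only, and EIF4A2 neither. Of 84 cytosolic ribosomal protein genes, 37 had both, 42 SON only and 4 neither, and the strongest peaks overlapped at 28 of the 37. RPS12 and RPL18 ranked highest, with 58.48 and 28.16 at RPL18, and RPL3 led the genes with SON only at 57.51. Of 77 mitochondrial ribosomal protein genes, 24 had both, led by MRPS18B and MRPL49, 41 had SON only, led by MRPL24 at 148.1, 3 had HMGB2 only, led by MRPL13 at 8.822, and 9 had neither. Of 48 proteasome genes, 21 had both, led by PSMD1 and PSMD3, 19 SON only, led by PSMD5, and 8 neither. Of 36 complex I genes, 10 had both, led by NDUFS7 and NDUFA11, 21 SON only, led by NDUFA3 at 167.8, NDUFA10 had HMGB2 only, and 4 had neither. DEAD and DEAH box helicases (53 genes) had 19 with both, led by DDX17 and DDX41, 27 with SON only, led by DDX49, DHX58 with HMGB2 only, and 6 with neither. RBM genes (42) had 15 with both, led by RBM39 and RBM14, 19 with SON only, led by RBM17, and 8 with neither.

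Gene families in clusters share peaks, so their counts are not counts of independent sites. Of 73 clustered histone genes, 52 had both, led by H2AC11 and H2BC11 at 55.74 and 19.2, and 13 had SON only, led by H1-6, but these rest on 35 distinct strongest SON peaks and 26 distinct strongest HMGB2 peaks. Of 509 zinc finger genes, 69 had both, led by ZNF576 and ZNF143, 328 had SON only, led by ZNF444 at 147.7, and 4 HMGB2 only, led by ZNF236 at 9.458. SON was thus more frequent at zinc finger genes (78.0%) than at all genes, and HMGB2 less frequent (14.3%). Of 39 HOX genes, 11 had HMGB2 (28.2%), on 7 distinct strongest HMGB2 peaks, and 9 had SON (23.1%), on 4 distinct strongest SON peaks. Among them 8 had both, led by HOXA3 and HOXA5, 3 had HMGB2 only, led by HOXB2 at 10.63, and their windows held 13 HMGB2 and 7 SON peaks. Of 65 protocadherin genes 23 had both, led by PCDH9 and PCDHGA1, but on 2 distinct HMGB2 peaks, and PCDH1 was the strongest of 3 with SON only. Olfactory receptor and keratin genes were nearly empty. Of 390 olfactory receptor genes, 10 had SON, led by OR1J2 at 20.67, and OR6B2 had HMGB2 at 16.3. Of 55 keratin genes, 6 had SON, led by KRT81 at 13.63, and none had HMGB2.

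The 2 lists were also distributed unequally over chromosomes. Over all these chromosomes HMGB2 was present at 37.9% of genes with SON. The share was 52.8% on chromosome 17, 48.3% on chromosome 11 and 46.3% on chromosome 6, and 22.8% on chromosome 18 and 15.3% on the X chromosome. There were 2.01 SON peaks per HMGB2 peak on chromosome 17, 2.265 on chromosome 19, 3.283 on chromosome 6 and 8.05 on chromosome 18. The lists held 22216 SON and 5992 HMGB2 peaks in all. Counted by peaks, chromosome 6 was thus close to chromosome 1, with 3.187. The X chromosome was the poorest in both, with SON at 32.3% and HMGB2 at 5.07% of its 848 genes. Numbers of copies of each chromosome in the cells were not measured here, and their part in these shares was not tested.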

How the data were processed

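IMR90 cells were profiled by ChIPmentation, and 2 deposited peak lists, SON and HMGB2 in untreated cells, were used. Per the submitters' processing notes, bcl2fastq 2.17, Bowtie2, MACS2, deepTools and hg38 were used, with no role or order stated. Per the file headers and values, the authors deposited the SON list in the layout of the IDR tool on 2 replicates, with −log10 p, summits, a −log10 IDR and a score. The HMGB2 list is a MACS narrowPeak list in which the authors deposited a fold enrichment, −log10 p, −log10 q (the largest q was 0.0287), a score and a summit. The p-value columns deposited were used as −log10 p. How the SON replicates were made, whether the HMGB2 list pools replicates, and the depth are not given in the sources used here.

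Peaks on chromosomes 1 to 22 and X were assigned to RefSeq GRCh38.p14 protein-coding genes (body plus 5 kb, any overlap), and the highest −log10 p per gene was ranked within its list. Pairs were peaks overlapping by at least 1 base. Starts and strands came from the RefSeq promoter table, which held 22012 distinct starts for 15812 genes. Named loci were the 8 highest of each class, the 5 most unequal in each direction, the target genes and members of the 37 lists (members of lists of up to 15, the leading members of longer ones; a few members are not reported here). The windows printed are the 3 highest shared pairs that had a promoter window and, for each list, the strongest peak at a protein-coding gene start that meets no peak of the other. Members and lists were chosen with earlier results of these data known. Medians, shares and rank correlations were computed with Python 3.11.15, numpy 2.4.6, pandas 2.3.3 and scipy 1.17.1, and tested on simulated peaks. Alternatives covered the gene window, thresholds, measures of strength, summits and overlap. The 3- and 6-day SON lists, the input and the DSG sample were not used here.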

Additional observations from a re-analysis of the deposited data

Results flagged for a closer look

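Peaks outside chromosomes 1 to 22 and X entered none of the comparisons. They numbered 146 in the SON list and 21 in the HMGB2 list, on mitochondrial DNA and on contigs with no assigned place, and are given as values only.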

How the results depend on the processing

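The number of genes with both proteins (4324) was 2798 with gene bodies alone, 2645 within 1 kb of either gene end, 2303 with the stronger 50% of each list, 2738 with a SON list as long as the HMGB2 list and 968 among genes that share no window, which are fewer by construction. Genes with SON only (7077) numbered 2839 with the shorter SON list and 2128 among genes that share no window. Genes with HMGB2 only (326) numbered 856 at a SON global IDR of at most 0.05, 1912 with the shorter SON list and 92 among genes that share no window. The rank relation (rho 0.227) was reversed with HMGB2 fold enrichment (−0.122), and was 0.194 at an IDR of at most 0.05, 0.153 with the stronger 50%, 0.189 with gene bodies and 0.184 at genes that share no window. The excess in SON percentile of genes with both over genes with SON only (22.3) was 18.2 at an IDR of at most 0.05 and 16.8 with gene bodies. In gene length classes 1, 2 and 5 it was 25.5, 26.2 and 19.1. The excess in HMGB2 percentile (20.9) was reversed with fold enrichment (−9.89), and was 31.3, 14.6 and 10.7 in length classes 1, 4 and 5. These classes were chosen after seeing the data. The summit distance (38 bp) was 51.2 bp between interval midpoints and 33 bp with the stronger 50%. The share of summits at starts, 27.8% for SON, was 29.5% with 2 kb, 37.6% with the stronger 50% and 35.0% at an IDR of at most 0.05, and for HMGB2 39.8%, then 43.6% and 43.8%. Within classes 1 and 2 of CpG number, the CCAAT difference (16.1 points) was 21.6 and 11.4. The cause of these changes was not tested. Of the 46 alternatives planned, 21 stayed within the limits set for them, 1.5 times for a count of genes and the 95% interval for the other values.

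No paired analysis was possible because each target has 1 list. The SON list holds only peaks found in both replicates, so lists without a replicate were not made. With the values of SON replicate 1 alone rho was 0.229, and with the summits of replicates 1 and 2 alone the distance was 39 and 38 bp. The list's −log10 p is the lower of the replicates' values, and both columns are the same at 71.3% of genes with both. The rho of replicate 1 could therefore hardly differ and is no independent check, though it is counted among the 21 alternatives within limits. Depth is unknown, and a gene without a peak is not shown to lack the protein.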

Other observations

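Promoters of long noncoding RNA genes carried both proteins less often than those of protein-coding genes. Of 11380 such windows, 3.00% (2.69 to 3.33%) overlapped peaks of both, 9.15% (8.62 to 9.69%) SON only and 0.50% HMGB2 only. Many of them adjoin a coding gene. Of the 6209 that lay at least 2 kb from any protein-coding gene, 0.93% (0.71 to 1.21%) had both, 3.51% SON only and 0.21% HMGB2 only. Those with both that ranked highest were LINC00863 with NUTM2A-AS1, where SON had a −log10 p of 24.38 and HMGB2 24.87, followed by LINC01778, DLEU1, LINC01569, MIR210HG, MIRLET7A1HG and PRECSIT. MIR210HG, the host of a microRNA known for its response to low oxygen, had 16.27 for SON and 18.73 for HMGB2, and MIRLET7A1HG, a host of let-7 microRNAs, had 30.61 and 12.81. DLEU1, a gene of the region often deleted in leukemia, had 41.55 and 12.84.

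Genes with many SON peaks and genes with many HMGB2 peaks differed in length. The 67 genes with at least 10 SON peaks had a median length of 431 kb, and the 8 genes with at least 10 HMGB2 peaks one of 35.9 kb. DLC1, DLGAP1 and RAD51B had 18 SON peaks each, and IGFBP5, at 23.4 kb, had 20 HMGB2 peaks. PDE10A, with 14 HMGB2 peaks, was an exception in length, at 660.8 kb. These genes were picked for their counts after the values were seen.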
